A study of Homo sapiens with 6 samples.

Results

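The 10 genes described here are the transcription factor NRF2 (gene NFE2L2), its inhibitor KEAP1, and NQO1, GCLC, GCLM, HMOX1, TXNRD1, SRXN1, FTL and FTH1, which are textbook targets of NRF2. They were taken by gene name, without regard to their values, and make up 10 of the 32029 genes listed in the files, and all 10 passed the filter on low counts. RNA was sequenced from 6 cultures of SW480, an established human colorectal cancer cell line, 48 h after transfection. The 3 siControl cultures (siNC in the sample titles, genotype WT) received control siRNA. The 3 siZEB1 cultures (genotype ZEB1 knockdown) received siRNA against ZEB1, a repressor of epithelial genes. All 6 cultures are of 1 cell line, and the sequences of the siRNAs are not given in the sources used here. The question put to these genes was whether their RNA levels differed between siZEB1 and siControl cultures.

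The files hold 19040636 to 22357633 reads counted on genes per culture. ZEB1 fell from 54.2 ± 6.24 to 7.51 ± 0.843 CPM (SD, n = 3 each), where CPM is a count divided by the TMM-scaled size of its library. Among the epithelial markers, KRT8 and KRT18 were abundant, at 3455 ± 160 and 1418 ± 150 CPM in siControl, and EPCAM rose from 54.7 ± 2.29 to 454 ± 14.1 CPM. VIL1 and KRT19 rose as well, CDX2 fell, GPA33 was below the filter and CDX1 was not among the genes listed. Of 9 fibroblast, leukocyte and endothelial markers, COL1A1, PDGFRB, CD14 and PECAM1 passed the filter, with group means from 0.472 to 10.2 CPM, and PDGFRB was called higher, from 3.98 to 5.33 CPM. COL1A2 and CD3E were below the filter, and PTPRC, DCN and CDH5 were not among the genes listed. The part of these marker changes in the results for the 10 genes was not tested. In bulk RNA, fewer cells that express a gene and less of its RNA per cell cannot be told apart.

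NRF2 is a transcription factor of the cap'n'collar family. In unstressed cells KEAP1, an adaptor of the CUL3 ubiquitin ligase, binds NRF2 and marks it for degradation. Oxidants and electrophiles modify cysteines of KEAP1, NRF2 then builds up in the nucleus, pairs with a small MAF protein and binds antioxidant response elements (AREs). Its activity is therefore set largely at the protein level, and the RNA of NFE2L2 does not measure it. The targets make glutathione, reduce thioredoxin and quinones, break down heme and store iron.

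Promoter sequences from RefSeq, on GRCh38.p14, covered 300 bases around each start site, mostly before it. They were at hand for 8 of the 10 genes, in 11 windows, and HMOX1 and FTH1 had none. The core of the ARE, TGACNNNGC, was searched on both strands and found in 4 of the 11 windows, those of KEAP1, GCLM and TXNRD1, against 13.3% of all 35116 windows of the same length. The matches are shown because GCLM and TXNRD1 moved in opposite directions while both hold the core close to a start site. Each is written along the strand of its gene with the core in capitals, and a core that reads TGACNNNGC on the other strand appears as its reverse complement.

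GCLM, chr1:93909441-93909479, minus strand: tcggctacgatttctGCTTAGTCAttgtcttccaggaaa
KEAP1, chr19:10502802-10502840, minus strand: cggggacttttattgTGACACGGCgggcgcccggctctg
KEAP1, chr19:10502779-10502817, minus strand: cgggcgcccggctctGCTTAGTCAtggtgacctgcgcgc
TXNRD1, chr12:104215665-104215703, plus strand: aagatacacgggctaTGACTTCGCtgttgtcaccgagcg
TXNRD1, chr12:104215756-104215794, plus strand: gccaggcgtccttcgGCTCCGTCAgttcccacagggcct
TXNRD1, chr12:104286915-104286953, plus strand: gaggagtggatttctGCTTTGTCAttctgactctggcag

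The GCLM match and the second KEAP1 match have the same 9 letters, GCTTAGTCA, and lie 34 and 31 bases before their start sites, counted to the farthest base of the core. The windows of NFE2L2, NQO1, GCLC, SRXN1 and FTL hold no such core, which says only that these letters are not in the bases searched. The E-box CACCTG, to which ZEB1 binds, was found once each in a window of KEAP1 and of SRXN1, against 20.6% of all windows. These are matches of letters, and binding was not measured in these cultures.

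The 10 genes did not move as a group. A gene was called where edgeR's quasi-likelihood test, with Benjamini-Hochberg adjustment, gave an adjusted p-value under 0.05. By this rule 3 were higher in siZEB1 (GCLC, GCLM and KEAP1) and 2 were lower (HMOX1 and TXNRD1), while NFE2L2, NQO1, SRXN1, FTL and FTH1 were not called. Of all 14996 genes tested, 19% were called higher and 21.2% lower. The median log2 fold change of siZEB1 over siControl was 0.0046 for the 10 genes and -0.0055 for all genes tested. The groups did not overlap at 6 of the 10, against 49.5% of all genes. Where a change had to exceed 1.5-fold with an unadjusted p-value of less than 0.001, 2 of the 10 passed, HMOX1 and TXNRD1, against 11.2% of all genes. The shares called among the 10 were near these backgrounds.

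**Figure D1:**
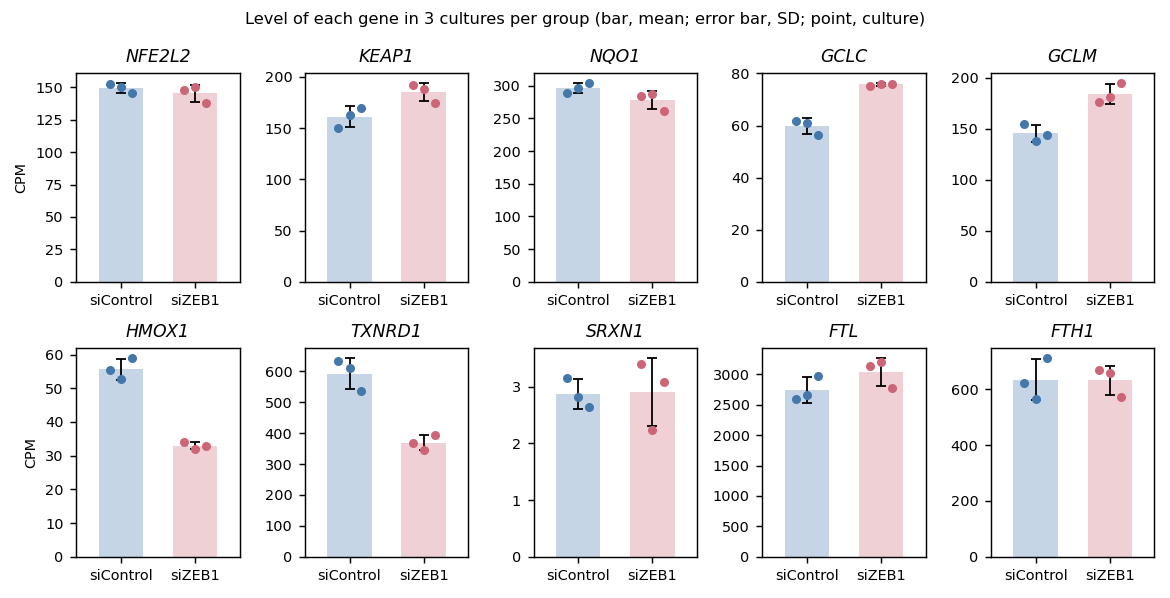
Level of each of the 10 genes in CPM (vertical axis, starting at 0) in the siControl and siZEB1 cultures, with each culture as a point, the mean as a bar and the SD as an error bar (n = 3). HMOX1 and TXNRD1 sit lower and GCLC and GCLM higher in all 3 siZEB1 cultures than in any siControl culture. By small margins, the same holds for KEAP1 (higher) and for NQO1 (lower, not called).

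NFE2L2 (ENSG00000116044, chromosome 2 from 177227595 to 177392697) encodes NRF2 itself. It was at 153, 150.0 and 145 CPM in the siControl cultures and at 148, 150.5 and 138 CPM in the siZEB1 cultures. The groups overlapped, and all 6 cultures lay close together. The log2 fold change was -0.038 (SE 0.060, adjusted p = 0.65, edgeR), with a 95% interval from -0.16 to 0.080. Exons of other genes cover 17.6% of its exonic bases on the same strand and 4.08% on the opposite strand. Of the overlapping genes, AC019080.1 had 1 to 9 reads per culture and AGPS had 2840 to 3640, and the reads of AC079305.1 were not tallied. The share of the overlap on either strand that belongs to each gene was not worked out.

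KEAP1 (ENSG00000079999, chromosome 19 from 10486120 to 10503741) is the protein that holds NRF2 down. It was at 151, 163 and 170.0 CPM with siControl and at 192, 188 and 175 CPM with siZEB1. Every siZEB1 culture was above every siControl culture, by a small margin between the closest pair. The log2 fold change was 0.20 (SE 0.064, adjusted p = 0.0204, edgeR), a rise of 14.7% in mean CPM. The call was lost without siControl replicate 1 (adjusted p = 0.10), siControl replicate 2 (0.0555), siZEB1 replicate 1 (0.111) or siZEB1 replicate 2 (0.0738), while the direction held. A ratio of reads within a culture does not depend on library scaling, and NFE2L2 to KEAP1 was 1.02, 0.919 and 0.855 with siControl and 0.771, 0.801 and 0.790 with siZEB1. The ratio was lower in all 3 siZEB1 cultures, with a log2 difference of -0.24. The two-sided exact permutation test gave p = 0.1, the smallest that 3 cultures against 3 allow, and 0.2 adjusted over the 4 ratios tested.

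GCLC and GCLM are the catalytic and the modifier subunit of glutamate-cysteine ligase, which catalyses the rate-limiting step of glutathione synthesis. GCLC (ENSG00000001084, chromosome 6 from 53497341 to 53616970) was at 61.9, 61.1 and 56.4 CPM with siControl and at 75.3, 76.1 and 76.0 CPM with siZEB1. GCLM (ENSG00000023909, chromosome 1 from 93885205 to 93909456) was at 154, 138 and 144 CPM with siControl and at 176, 181 and 195 CPM with siZEB1. Both subunits were higher in every siZEB1 culture than in any siControl culture. On the log2 scale GCLC rose by 0.34 (SE 0.066, adjusted p = 0.000536, edgeR). For GCLM the change was also 0.34 (SE 0.064, adjusted p = 0.000421, edgeR). In mean CPM they rose by 26.7% and 26.5%, both below the 1.5-fold limit. Leaving out 1 culture at a time gave log2 fold changes from 0.30 to 0.36 for GCLC and from 0.30 to 0.38 for GCLM. The ratio of GCLM to GCLC reads was 2.43 ± 0.160 with siControl and 2.43 ± 0.116 with siZEB1 (SD, n = 3 each), and its log2 difference of -0.0031 was within the spread between cultures (exact permutation test, two-sided, p = 1). The 300-base promoter windows of the pair are shown in full since the genes rose together while only the window of GCLM holds the ARE core (capitals). Sequence outside the windows was not searched, so an ARE of GCLC farther from its start site would not be seen.

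GCLM, chr1:93909381-93909680, minus strand: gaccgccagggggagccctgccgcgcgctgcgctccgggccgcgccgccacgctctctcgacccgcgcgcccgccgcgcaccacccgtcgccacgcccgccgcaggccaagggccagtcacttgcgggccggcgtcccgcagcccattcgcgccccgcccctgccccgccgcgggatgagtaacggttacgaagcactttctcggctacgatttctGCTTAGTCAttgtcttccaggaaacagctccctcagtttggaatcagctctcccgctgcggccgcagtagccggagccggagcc
GCLC, chr6:53545052-53545351, minus strand: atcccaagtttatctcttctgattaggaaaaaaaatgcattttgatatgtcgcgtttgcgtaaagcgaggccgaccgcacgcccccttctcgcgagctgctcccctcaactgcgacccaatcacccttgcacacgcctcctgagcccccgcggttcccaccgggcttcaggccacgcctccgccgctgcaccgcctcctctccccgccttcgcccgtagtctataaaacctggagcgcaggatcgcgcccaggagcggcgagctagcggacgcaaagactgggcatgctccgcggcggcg

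TXNRD1 (ENSG00000198431, chromosome 12 from 104215779 to 104350305) is the cytosolic thioredoxin reductase, a selenoprotein that passes electrons from NADPH to thioredoxin. It was at 633, 610 and 537 CPM with siControl and at 367, 345 and 394 CPM with siZEB1. The siZEB1 cultures were all lower, far outside the spread within either group. The log2 fold change was -0.69 (SE 0.067, adjusted p = 3.91e-07, edgeR), and mean CPM fell by 37.9%. Fits without 1 culture gave -0.76 to -0.64. Its partner TXN, the thioredoxin that it reduces, was at 414 ± 21.2 CPM in siControl cultures against 402 ± 28.2 CPM in siZEB1 cultures (SD, n = 3 each) and was not called (adjusted p = 0.618, edgeR).

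SRXN1 (ENSG00000271303, chromosome 20 from 646615 to 653370) is sulfiredoxin, which repairs over-oxidized peroxiredoxins. It rested on few reads, 67, 63 and 51 in the siControl cultures and 64, 43 and 59 in the siZEB1 cultures. These reads overlap between the groups, and the log2 fold change of 0.014 had a 95% interval from -0.37 to 0.40 (adjusted p = 0.962, edgeR). With these few reads and 3 cultures per group, changes within this interval could not be told apart. Exons of AL121758.1 on the same strand cover 85% of the exonic bases of SRXN1, so its count depends on how shared reads were treated, and AL121758.1 itself had 2 to 7 reads per culture. PRDX1, a peroxiredoxin that sulfiredoxin repairs, was not called (log2 fold change -0.099, adjusted p = 0.15, edgeR). The ratio of SRXN1 to PRDX1 reads was 0.00479 ± 0.000455 with siControl and 0.00520 ± 0.00115 with siZEB1 (SD, n = 3 each), within the spread (exact permutation test, two-sided, p = 0.7).

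HMOX1 (ENSG00000100292, chromosome 22 from 35380361 to 35394214) is heme oxygenase, which opens the heme ring and releases iron, biliverdin and carbon monoxide. It was at 55.4, 52.7 and 58.9 CPM with siControl and at 34.1, 31.9 and 32.9 CPM with siZEB1. No siZEB1 culture came near a siControl culture. The log2 fold change was -0.76 (SE 0.073, adjusted p = 3.93e-07, edgeR), and mean CPM fell by 40.8%, the lowest value among the 10. Fits without 1 culture gave -0.79 to -0.72. BACH1, a repressor that competes with NRF2 at the AREs of HMOX1, was at 72.0 ± 9.02 and 64.5 ± 5.72 CPM (SD, n = 3 each) and was not called (adjusted p = 0.171, edgeR). Without siControl replicate 3, BACH1 was called lower, with a log2 fold change of -0.26 (adjusted p = 0.00679, edgeR).

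NQO1 (ENSG00000181019, chromosome 16 from 69706996 to 69726951) reduces quinones and is often read as a marker of NRF2 activity. It was at 288, 296 and 304 CPM with siControl and at 284, 287 and 262 CPM with siZEB1. The groups did not overlap, but the gap between them was smaller than the spread within the siZEB1 group. The log2 fold change of -0.093 (SE 0.057, 95% interval from -0.20 to 0.019) was not called (adjusted p = 0.210, edgeR). Exons of AC092115.2 on the opposite strand cover 17.7% of its exonic bases.

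**Figure D2:**
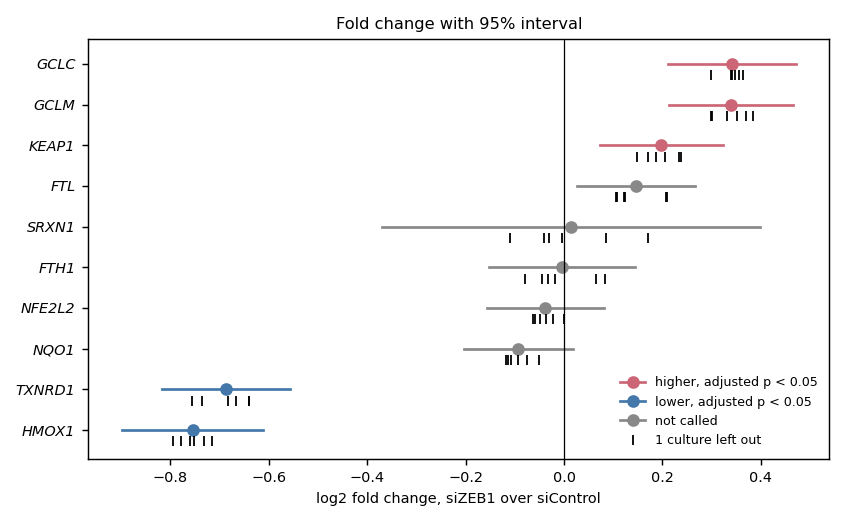
Log2 fold change of siZEB1 over siControl (horizontal axis) for the 10 genes, ordered by value, with the 95% interval as a line and the values with 1 culture left out as ticks below. HMOX1 (-0.76) and TXNRD1 (-0.69) lie apart on the left, GCLC and GCLM (0.34 each) on the right, and the ticks of SRXN1 and FTH1 fall on both sides of 0.

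FTL and FTH1 are the light and the heavy chain of ferritin, the shell in which cells store iron. FTL (ENSG00000087086, chromosome 19 from 48965301 to 48966878) was at 2587, 2660 and 2975 CPM with siControl and at 3138, 3194 and 2766 CPM with siZEB1. Replicate 3 of siControl was the highest of its group and replicate 3 of siZEB1 the lowest of its own, and the groups overlapped. The log2 fold change was 0.15 (SE 0.061, adjusted p = 0.0672, edgeR) and was not called. Without siControl replicate 3 it was 0.21 (adjusted p = 0.00319), and without siZEB1 replicate 3 it was 0.21 (adjusted p = 0.00530) (edgeR). With all 6 cultures but no filter on low counts it was also called, at 0.14 (adjusted p = 0.0231, edgeR). FTH1 (ENSG00000167996, chromosome 11 from 61959718 to 61967660) was at 624, 567 and 712 CPM with siControl and at 668, 658 and 571 CPM with siZEB1. The groups overlapped almost fully, with a log2 fold change of -0.0044 (95% interval from -0.15 to 0.14, adjusted p = 0.969, edgeR), whose sign changed with DESeq2 and with median-of-ratios scaling.

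The reads of FTH1 are uncertain in number. Exons of BEST1 on the opposite strand cover 62.4% of its exonic bases, and BEST1 had 5 to 12 reads per culture. The 14 listed FTH1 pseudogenes held 1.45% to 1.91% as many reads as FTH1, and the 5 listed FTL pseudogenes at most 0.0302% as many as FTL. How reads that map to several places were treated is not given, so these shares may miss reads common to a gene and its pseudogenes. The ratio of FTH1 to FTL reads was 0.241, 0.213 and 0.239 with siControl and 0.213, 0.206 and 0.207 with siZEB1. All siZEB1 cultures were lower, although the closest pair of cultures differed very little. The log2 difference was -0.15 (exact permutation test, two-sided, p = 0.1, the smallest possible here, and 0.2 adjusted over the 4 ratios).

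**Figure D3:**
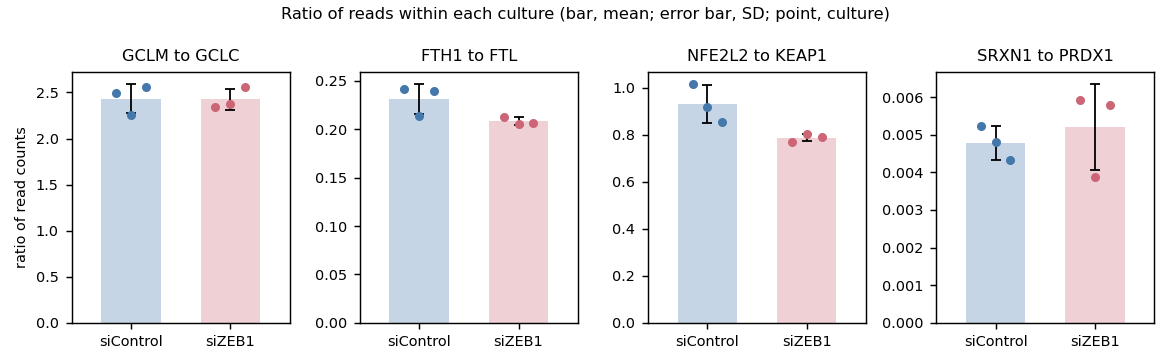
Ratio of reads within each culture (vertical axis, starting at 0) for 4 pairs of genes, with cultures as points, the mean as a bar and the SD as an error bar (n = 3). GCLM to GCLC stays at 2.43 in both groups, whereas FTH1 to FTL and NFE2L2 to KEAP1 are lower in all 3 siZEB1 cultures.

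Ferritin is also controlled by iron at the level of translation. Iron regulatory proteins (ACO1 and IREB2) bind a hairpin, the iron-responsive element, in the 5′ untranslated region of ferritin RNAs and block their translation, and bind like hairpins at the end of the transferrin receptor RNA (TFRC) and stabilize it. The 5′ untranslated regions were searched for a C, a stem of 5 pairs and the loop CAGTGN. FTL, FTH1 and the iron exporter SLC40A1 held 1 such element each. It was found in 0.131% of 12180 genes, which were the tested genes with a 3′ untranslated region. The elements of FTL and FTH1 are shown, with the loop in capitals, because ACO1 changed the most of all pathway genes described here. The sequences are from GENCODE 29 transcripts.

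FTL, chr19:48965335-48965364, plus strand: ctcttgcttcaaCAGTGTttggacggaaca
FTH1, chr11:61967573-61967602, minus strand: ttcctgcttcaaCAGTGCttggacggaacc

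The level of ACO1 was 58.7 ± 1.62 CPM in siControl and 12.8 ± 1.33 CPM in siZEB1 (SD, n = 3 each), and it fell by 2.19 on the log2 scale (SE 0.086, adjusted p = 6.20e-12, edgeR). IREB2, the other iron regulatory protein, rose by 0.36 on the log2 scale, with means of 87.7 ± 12.1 and 113 ± 13.0 CPM (adjusted p = 0.00558, edgeR). TFRC, the receptor that imports iron-loaded transferrin and holds 4 such elements in the 3′ untranslated region searched, rose from 626 ± 63.7 to 832 ± 57.7 CPM (log2 fold change 0.41, adjusted p = 0.000161, edgeR). RNA counts do not show how much ferritin was translated.

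Compared per kilobase of exon, the levels of the 10 genes covered more than 3 orders of magnitude and kept the same order in both groups. In siControl, FTL was at 3121 ± 235 CPM per kb, FTH1 at 313 ± 36.0 and NQO1 at 90.9 ± 2.42. TXNRD1 followed at 88.4 ± 7.43, KEAP1 at 42.9 ± 2.63, GCLM at 26.8 ± 1.55 and NFE2L2 at 25.0 ± 0.635. HMOX1 was at 23.1 ± 1.30, GCLC at 6.92 ± 0.342 and SRXN1 at 1.06 ± 0.0954 CPM per kb (SD, n = 3 each). Exons of other genes cover 62.4% of the exonic bases of FTH1 and 85% of those of SRXN1. The levels of these genes per kb, and so the lower end of the range, depend on strand and on how shared reads were treated. NQO1 and TXNRD1 overlapped in siControl, as did GCLM with NFE2L2 and NFE2L2 with HMOX1. In siZEB1 no neighbours in this order overlapped: TXNRD1 was at 54.9 ± 3.66 CPM per kb, below NQO1 at 85.3 ± 4.2, and HMOX1 at 13.7 ± 0.443, below NFE2L2 at 24.3 ± 1.09.

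**Figure D4:**
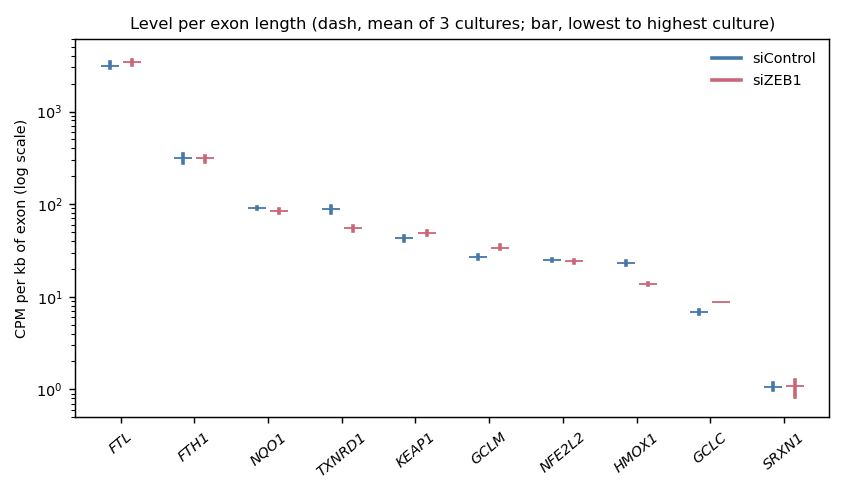
Level per exon length in CPM per kb (vertical axis, log scale) of the 10 genes, ordered by siControl, with the mean of 3 cultures as a dash and the lowest to highest culture as a bar. FTL is at the top (3121 in siControl) and SRXN1 at the bottom (1.06), and TXNRD1 and HMOX1 show the widest gaps between the groups. FTH1 and SRXN1 share most of their exonic bases with other genes, so their levels depend on how shared reads were treated.

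Beyond the 10, 67 genes of the wider pathway were listed in 7 groups, and 64 of them passed the filter. By the same rule for calls, 16 were higher and 15 lower in siZEB1, and their median log2 fold change was -0.060. These counts were near the shares of all genes tested, 19% higher and 21.2% lower, and the smaller groups are given as counts only. Among the 10 regulators of NRF2, 2 were higher and 3 lower (median 0.052). BTRC, a subunit of another ubiquitin ligase that degrades NRF2, fell by 0.80 on the log2 scale (adjusted p = 2.27e-07), while GSK3B, the kinase that marks NRF2 for it, rose by 0.56 (adjusted p = 2.53e-05). MAFF, a small MAF partner, rose by 0.39 (adjusted p = 0.000867), and CUL3 was not called (log2 fold change 0.12, adjusted p = 0.192).

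Of the 11 genes for the synthesis and use of glutathione, 3 were higher and 3 lower (median -0.038). SLC7A11 and SLC3A2 form the antiporter that imports cystine, the source of cysteine for glutathione, and are also known targets of ATF4. SLC7A11 rose from 14.8 ± 0.463 to 25.0 ± 2.75 CPM (log2 fold change 0.75, adjusted p = 7.52e-06) and SLC3A2 from 933 ± 53.3 to 1327 ± 76.2 CPM (log2 fold change 0.51, adjusted p = 1.96e-06; SD, n = 3 each, edgeR). GCLC and GCLM act on the cysteine that this import supplies, and rose by less. GLRX, a glutaredoxin that uses glutathione, fell by 0.79 on the log2 scale (adjusted p = 1.39e-07).

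Among the 10 thioredoxins and peroxiredoxins, 2 were higher and the other 8 were not called in edgeR's test, with a median of -0.049. PRDX4, the peroxiredoxin of the endoplasmic reticulum, rose from 44.3 ± 5.05 to 109 ± 9.26 CPM (log2 fold change 1.30, adjusted p = 3.84e-09), and TXNIP, an inhibitor of thioredoxin, from 40.7 ± 3.31 to 89.9 ± 2.17 CPM (log2 fold change 1.14, adjusted p = 2.74e-09). Of the 6 genes that supply NADPH, 2 were higher and 2 lower (median -0.13). The malic enzyme ME1 rose by 0.67 on the log2 scale (adjusted p = 1.93e-07), and PGD, an enzyme of the pentose phosphate pathway, fell by 0.22 on that scale (adjusted p = 0.00573).

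Of the 12 tested genes of xenobiotic and aldehyde metabolism, 4 were higher and 1 lower (median -0.035), and AKR1B10 and ALDH3A1 were below the filter. ABCC3, an export pump for conjugates, rose by 0.50 on the log2 scale (adjusted p = 0.000906) and OSGIN1 by 0.32 (adjusted p = 0.00711), but the OSGIN1 call was lost without siControl replicate 2 or siZEB1 replicate 1 (adjusted p = 0.0589 and 0.0531). AKR1B1, at 3.13 ± 0.641 CPM with siControl, was called higher (log2 fold change 0.58, adjusted p = 0.0273) although its groups overlapped, and lost the call in 4 fits that each left out 1 culture, with adjusted p-values from 0.0681 to 0.123. Of the 12 genes of heme breakdown and iron handling, 2 were higher and 5 lower (median -0.16). Besides ACO1, the iron exporter SLC40A1 was called lower, at 3.08 ± 0.5 and 1.87 ± 0.753 CPM, but not without siControl replicate 2 or siZEB1 replicate 2 (adjusted p = 0.127 and 0.159). Of the 3 tested superoxide dismutases and catalase, CAT fell by 0.40 on the log2 scale (adjusted p = 0.00149) and SOD2 rose by 0.24 (adjusted p = 0.0200), a call lost without siControl replicate 2 or siZEB1 replicate 1 (adjusted p = 0.129 and 0.0904). In 6 of the 7 groups genes were called in both directions, and among the thioredoxins and peroxiredoxins the called genes were PRDX4 and TXNIP.

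**Figure D5:**
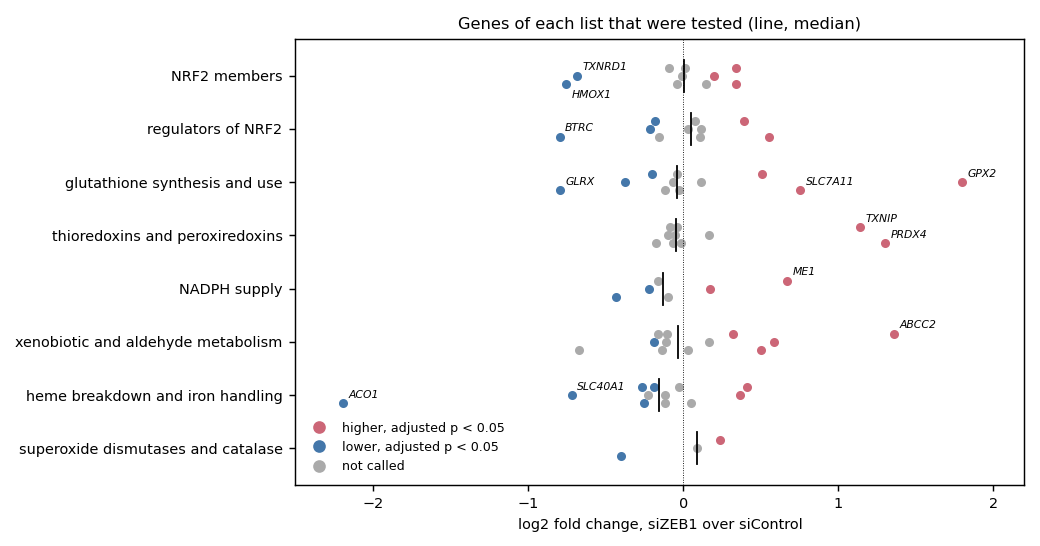
Log2 fold change of siZEB1 over siControl (horizontal axis) of each tested gene in the 10 NRF2 genes and the 7 groups of pathway genes, coloured by call, with the median of each group as a line. The medians lie between -0.16 and 0.090, and ACO1 (-2.19), PRDX4 (1.30) and TXNIP (1.14) lie far from them; GPX2 and ABCC2, also far to the right, rest on at most 24 reads per culture.

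The heptamer GAACACA in 3′ untranslated regions was examined because earlier results of these cultures had drawn attention to it, so its values here are a description. It occurs in 10.7% of the 12180 tested genes with a 3′ untranslated region in GENCODE 29 (1 transcript per gene), and these had a median log2 fold change of -0.23, against 0.0066 for the others. Genes with and without the heptamer were not matched for the length of this region. Of the 10 NRF2 genes, TXNRD1 alone holds the heptamer, once, and HMOX1 does not. The 3′ untranslated region of ACO1 holds it 3 times, and those of BTRC and GLRX do not. SOD2 holds it 2 times and was called higher, but its region has 13436 bases, against 1862 for TXNRD1. The part of this sequence in the fall of TXNRD1 and ACO1 was not tested. The site in TXNRD1 is shown with the heptamer in capitals.

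TXNRD1, chr12:104349474-104349502, plus strand: attaatattttGAACACAggtggatgtga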

How the data were processed

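RNA-seq of 6 SW480 cultures was examined, 3 siControl and 3 siZEB1. The authors deposited unnormalized read counts per Ensembl gene for each culture, and the submitters' processing notes name Trimmomatic, HISAT2, SAMtools, featureCounts and hg38. The annotation and the settings for strand and for reads that map to several places are not given in the sources used here. Genes were kept by edgeR's filterByExpr, given TMM size factors and compared by the quasi-likelihood F-test of edgeR without covariates, with p-values adjusted by Benjamini-Hochberg across all 14996 retained genes, in R 4.3.3 with edgeR 4.0.16 and DESeq2 1.42.0. The fit was tested on simulated data, and the outcome is not reported here. Intervals are 1.96 SE on each side. The study states 3 biological replicates for its RNA-seq. The p-values test the difference between the groups against the variation between cultures, which edgeR estimates with information from all genes.

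The 10 members were given by name. Genes of the pathway lists were named if they were among the 3 called genes of their list with the largest change and at least 1 CPM, or were BACH1, CUL3, SLC7A11, TXN, PRDX1, TFRC or IREB2. A further gene that the rule names is not reported here. GPX2 and ABCC2 fall outside this rule, since the average of their group means was under 1 CPM. Both were named after their values were seen. In siZEB1 alone GPX2 was at 1.17 CPM, against 0.322 CPM in siControl. The members, lists and alternatives were chosen with earlier results of these data known. SOD2 has 2 gene records, of which that with more reads was used. Positions and exonic lengths are from GENCODE 29 on GRCh38, and promoters from RefSeq on GRCh38.p14. The alternatives were DESeq2's Wald test, other size factors, other filters, other thresholds, a replicate block, each culture left out, and pseudogene reads added to FTH1 and FTL.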

Additional observations from a re-analysis of the deposited data

How the results depend on the processing

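HMOX1, TXNRD1, GCLC and GCLM kept their direction and their call under each alternative tried other than the fold limits, which GCLC and GCLM could not pass since neither rose 1.5-fold. With the fold limit and an unadjusted p under 0.05 or 0.001 in edgeR, 0 of the 10 genes were higher in either case, and of all genes 1081 and 678 were higher and 1402 and 1004 lower. FTH1 turned positive with DESeq2 (0.0028) and with median-of-ratios factors (0.0029). With 1 culture left out, the log2 fold change ran from -0.080 to 0.084 for FTH1, from -0.11 to 0.17 for SRXN1 and from -0.075 to 0.017 for TXN. The log2 difference ran from -0.058 to 0.033 for GCLM to GCLC and from -0.0095 to 0.30 for SRXN1 to PRDX1. The cause of these changes was not tested. Across genes, the counts of 2 cultures of a group were compared by chi-square per degree of freedom. In siControl it was 3.61 for replicates 1 and 2, 9.58 for 1 and 3, and 7.17 for 2 and 3. In siZEB1 the values were 2.27, 4.95 and 7.01, so replicate 3 differed most in both groups.

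Replicate numbers are shared between the groups, but same-numbered cultures did not deviate together (correlations -0.052, -0.088 and -0.20), so the numbers were not taken to pair them. With a replicate block, 2289 genes were higher and 2679 lower, and KEAP1 was not called (0.20, adjusted p = 0.0888, edgeR). The 3 cultures per group and, for SRXN1, the few reads limit what could be detected.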
